A study of Mus musculus with 8 samples.

Results

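The transcripts followed here belong to the unfolded protein response of the endoplasmic reticulum (ER) and to the integrated stress response, in colonic crypts of the mouse over the day. They were chosen as a fixed list of 36 genes in 7 groups by role: stress sensors, transcription factors, chaperones with their cofactors, disulfide isomerases, factors of ER-associated degradation, targets of the transcription factor ATF4, and translocon components. Of these, 35 were found among the 14247 genes of the deposited table, and Trib3 was not analysed here. All 35 passed the filter used for testing, a mean of at least 10 normalised counts (reads divided by a size factor of the library), which left 13503 genes. RNA was sequenced in bulk from crypts of wild-type mice on a C57BL/6 background, aged 2 to 4 months and kept under 12 h of light and 12 h of darkness. The crypts were released from the large intestine with EDTA and scraping. Collection was at zeitgeber time (ZT) 0, 6, 12 and 18, where ZT0 is lights on, with 2 libraries per time point, and no group carried a further allele or treatment. The labels do not say whether the libraries of a time point came from separate mice, so p-values measure the spread between these libraries, which may be technical. The captions of the study name more mice for each time than the libraries analysed here.

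The ER folds proteins that cells secrete or place in membranes. When unfolded proteins accumulate there, the sensors IRE1 (Ern1 and Ern2), PERK (Eif2ak3) and ATF6 act through the transcription factors XBP1, ATF4 and cleaved ATF6. Of these, mainly XBP1 and cleaved ATF6 raise the transcription of chaperones, isomerases and degradation factors, and ATF4 that of targets such as Asns and Chac1. PERK also slows translation by phosphorylating eIF2alpha. In the colon, goblet cells, which secrete mucin, and plasma cells, which secrete antibody, make heavy use of these genes, and Ern2 is largely restricted to mucin-secreting epithelium.

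Reads recovered from the deposited table summed to between 14722342 and 25159440 per library, over the genes of that table only. The share of the mitochondrial genome in the normalised counts ranged from 6.68% to 22.2% and differed between time points. It was 12.2% and 19.8% in the ZT0 libraries and 19.2% and 19.4% in those of ZT6. In those of ZT12 it was 6.68% and 7.845%, and in those of ZT18 22.2% and 9.80%. Epithelial markers were high in all libraries, with a sum over 9 genes of 294900 to 402491 normalised counts, but some libraries also held transcripts of other cells. The sum over 9 B and plasma cell markers was 3402 in ZT0 replicate 2 and 1484 in ZT12 replicate 1, against 189 to 613 in the other 6 libraries. The sum over 5 smooth muscle markers was 3672 in ZT12 replicate 1, 229 in ZT12 replicate 2 and 6.95 to 93.3 elsewhere, and that over 6 fibroblast markers was 2329 in ZT12 replicate 1, 648 in ZT0 replicate 2 and 3.22 to 148 elsewhere. In at least 1 library, 4 of the 9 B and plasma cell markers, 4 of the 5 smooth muscle markers and 5 of the 6 fibroblast markers were at 0. In ZT12 replicate 1, longer transcripts also tended to read higher: over the members, the correlation of the log2 deviation from the gene mean with log2 transcript length was 0.61 there, against -0.36 to 0.17 in the other 7 libraries (35 genes of the same libraries, not independent replicates), and 0.28 over all genes. In a bulk sample, fewer cells of a type and less RNA per cell cannot be told apart.

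The members spanned a wide range of levels. Expressed per kilobase of exon, mean levels over the 8 libraries were highest for the disulfide isomerases P4hb (3797 normalised counts per kilobase) and Pdia3 (2899) and for calreticulin, Calr (2856), followed by the ER HSP70 chaperone BiP, gene Hspa5 (1635), and the ER HSP90, Hsp90b1 (1379). The 4 sensors lay between 90.6 (Ern1) and 414 (Ern2) per kilobase. Derl3 and Chac1 were near the detection limit, at 7.45 and 7.23 per kilobase, where 3 reads correspond to 2.41 to 3.70 normalised counts.

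Whether these transcripts vary over the day was asked with a 24 h cosine fit, an F-test of any difference among the 4 times, and 6 pairwise contrasts, each fitted with limma over all 13503 genes and called at a Benjamini-Hochberg adjusted p under 0.05. None of the 35 members was called in any of the 8 tests. Calls were rare over all genes as well: the cosine fit called 0.118% of genes and the F-test 0.0889%. Relative to ZT0, 0.0444% were called at ZT6, 0.0667% at ZT12 and 0% at ZT18. Relative to ZT6, 0% were called at ZT12 and 0.0444% at ZT18, and the comparison of ZT18 with ZT12 called 0.0296%. The smallest adjusted p of a member was 0.335 in the limma cosine fit, for Hspa5. Before adjustment, 9 of 35 members had a limma p under 0.05 in the cosine fit, where 9.15% of all genes did, and 7 over the 4 time points, where 7.03% did. The first count was 4 without ZT6 replicate 2, and the second was 1 without either ZT6 library. On whole reads recovered from the table, edgeR called no member in any of the 8 tests, its smallest adjusted p being 0.398 (Hspa5, cosine fit). DESeq2 on the same reads called Hspa5, Calr and Creld2 in the cosine fit, at adjusted p = 0.00223, 0.0190 and 0.0222, where it called 1.4% of all genes. It also called Hspa5 and Creld2 over the 4 time points (adjusted p = 0.0254 and 0.0406), where 1.61% of genes were called, and Hspa5 for ZT18 against ZT6 (adjusted p = 0.03), where 0.504% were.

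**Figure D1:**
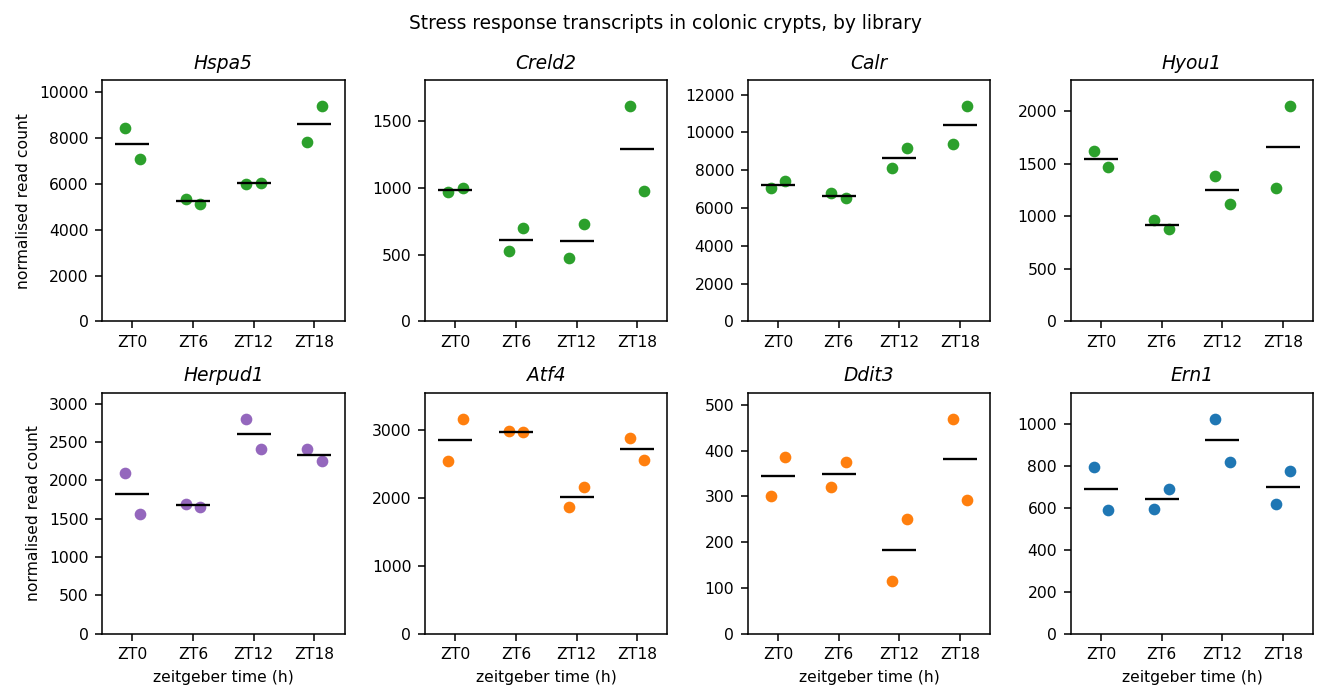
Normalised read counts (y axis, from 0) of 8 members at the 4 time points (x axis); each point is a library and each bar the mean of 2. Hspa5 and Creld2 are low in all 4 libraries of ZT6 and ZT12, while Atf4 and Ddit3 are lowest in the ZT12 libraries.

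Among the chaperones, Hspa5 (ENSMUSG00000026864, GRCm38 chr2:34771970-34777547, plus strand), which binds unfolded proteins and holds the sensors inactive, showed the clearest split. Its normalised counts were 8428 and 7099 in the ZT0 libraries, 5356 and 5128 in those of ZT6, 5997 and 6051 in those of ZT12, and 7845 and 9399.6 in those of ZT18. All 4 libraries of ZT6 and ZT12 thus lay below all 4 of ZT0 and ZT18. The level at ZT18 was 1.64-fold that at ZT6 (log2 fold change 0.71 ± 0.18 SE, unadjusted p = 0.00312, adjusted p = 0.535, limma), and the level at ZT6 was 0.678-fold that at ZT0 (log2 fold change -0.56 ± 0.18, unadjusted p = 0.0118, adjusted p = 1). The fitted cosine had an amplitude of 0.40 on the log2 scale and its peak at 19.8 h.

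Creld2 (ENSMUSG00000023272, GRCm38 chr15:88819646-88826683, plus strand), an ER protein induced by stress, divided the libraries in the same way. It had 966 and 999.9 normalised counts in the ZT0 libraries, 524 and 697 in those of ZT6, 478 and 733 in those of ZT12, and 1614 and 975 in those of ZT18. The ZT0 and ZT18 libraries did not overlap with those of ZT6 and ZT12, although the ZT18 libraries differed widely from each other. ZT18 was 2.07-fold ZT6 (log2 fold change 1.05 ± 0.29 SE, unadjusted p = 0.00551, adjusted p = 0.631, limma), ranging from 0.69 to 1.42 when single libraries were left out. The cosine amplitude was 0.64 with a peak at 20.3 h.

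Hyou1 (ENSMUSG00000032115, GRCm38 chr9:44379490-44392369, plus strand), an ER chaperone that exchanges nucleotide on BiP, had 1624 and 1465 normalised counts in the ZT0 libraries, 962 and 878 in those of ZT6, 1381 and 1115 in those of ZT12, and 1267 and 2049 in those of ZT18. Both ZT6 libraries were below the other 6. The log2 fold change was -0.75 ± 0.24 SE for ZT6 against ZT0 (unadjusted p = 0.0116, limma) and 0.81 ± 0.24 for ZT18 against ZT6 (unadjusted p = 0.00756, adjusted p = 0.634). The latter ranged from 0.46 to 1.16 when single libraries were left out.

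For Calr (ENSMUSG00000003814, GRCm38 chr8:84841850-84846934, minus strand), a calcium-binding lectin chaperone, the order of the time points was another one. Normalised counts were 7039 and 7436 in the ZT0 libraries, 6774 and 6537 in those of ZT6, 8104 and 9155 in those of ZT12, and 9363 and 11389 in those of ZT18. The 4 libraries of ZT12 and ZT18 lay above the 4 of ZT0 and ZT6, and the time points themselves did not overlap. ZT18 was 1.55-fold ZT6 (log2 fold change 0.63 ± 0.18 SE, unadjusted p = 0.00652, adjusted p = 0.634, limma) and 1.43-fold ZT0 (0.51 ± 0.18, unadjusted p = 0.0192, adjusted p = 0.932). Calr was the one member with a limma p under 0.05 for ZT18 against ZT0, where 2.46% of all genes were higher at that threshold. That count was 2 without ZT0 replicate 1, 3 without ZT0 replicate 2 or ZT18 replicate 2, and 4 without ZT18 replicate 1. It was 0 when only the 4 libraries of these times were fitted, and 0 when libraries were scaled to reads outside the mitochondrial genome.

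The other 7 chaperones and cofactors were Hsp90b1, Canx, Dnajb9, Dnajb11, Dnajc3, Sdf2l1 and Manf. Of the 11 genes of this group, 10 had their highest time mean at ZT18 (25.1% of all genes did) and 10 were higher at ZT18 than at ZT6 (48.4% of all genes were), with a median log2 difference of 0.63 and a range from -0.10 (Dnajb9) to 1.05. In 9 of them, both ZT18 libraries lay above both ZT6 libraries, as in 19.2% of all genes. Manf, a secreted ER stress protein, had a log2 fold change of 0.64 ± 0.24 SE for ZT18 against ZT6 (unadjusted p = 0.0246, limma) and 0.74 ± 0.24 for ZT18 against ZT12 (unadjusted p = 0.0119). Manf shares exon bases with Rbm15b and Dcaf1, and Hsp90b1 with the unprocessed pseudogene 1810014B01Rik on the other strand; since the strand setting of the counting is not stated, reads of such neighbours could not be told apart.

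Disulfide isomerases, which form and rearrange disulfide bonds, were higher at ZT18 than at ZT6 in 4 of 4 cases, by a median of 0.37 on the log2 scale. Pdia6 reached 0.51 ± 0.17 SE (unadjusted p = 0.0162, limma) and Pdia4 0.56 ± 0.24 (unadjusted p = 0.0450), while P4hb and Pdia3 had an unadjusted p over 0.05. The translocon components Ssr1 and Sec61b, which take part in the entry of new proteins into the ER, were at 0.44 ± 0.15 SE (unadjusted p = 0.0163, limma) and 0.24 in this contrast.

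ER-associated degradation, which draws misfolded proteins out to the proteasome, had 7 members. Leaving out the scarce Derl3, all 6 were higher at ZT18 than at ZT6, with a median log2 difference of 0.22 and a range from 0.04 (Derl1) to 0.60 (Syvn1). Herpud1 (ENSMUSG00000031770, GRCm38 chr8:94386438-94395377, plus strand), a scaffold of the ubiquitin ligase at the ER membrane, had 2092 and 1558 normalised counts in the ZT0 libraries, 1696 and 1653 in those of ZT6, 2803 and 2413 in those of ZT12, and 2411 and 2246 in those of ZT18. The ZT12 and ZT18 libraries all exceeded those of ZT0 and ZT6. ZT12 was 1.55-fold ZT6 (log2 fold change 0.63 ± 0.19 SE, unadjusted p = 0.00745, adjusted p = 0.705, limma) and 1.44-fold ZT0 (0.53 ± 0.19, unadjusted p = 0.0192, adjusted p = 0.427). The latter was 0.31 without ZT0 replicate 2 and 0.21 without both ZT0 replicate 2 and ZT12 replicate 1. The fitted cosine had its peak at 14.8 h. Syvn1, the ubiquitin ligase of this pathway, was at 0.60 ± 0.25 SE for ZT18 against ZT6 (unadjusted p = 0.0381, limma); its exons overlap those of Mrpl49 on the other strand. Derl3 (ENSMUSG00000009092, GRCm38 chr10:75893413-75895941, plus strand), a derlin known from secretory cells, was too scarce for a comparison, at 0 and 22.4 normalised counts in the ZT0 libraries, 6.16 and 8.70 in those of ZT6, 5.62 and 28.8 in those of ZT12, and 34.2 and 12.9 in those of ZT18.

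**Figure D2:**
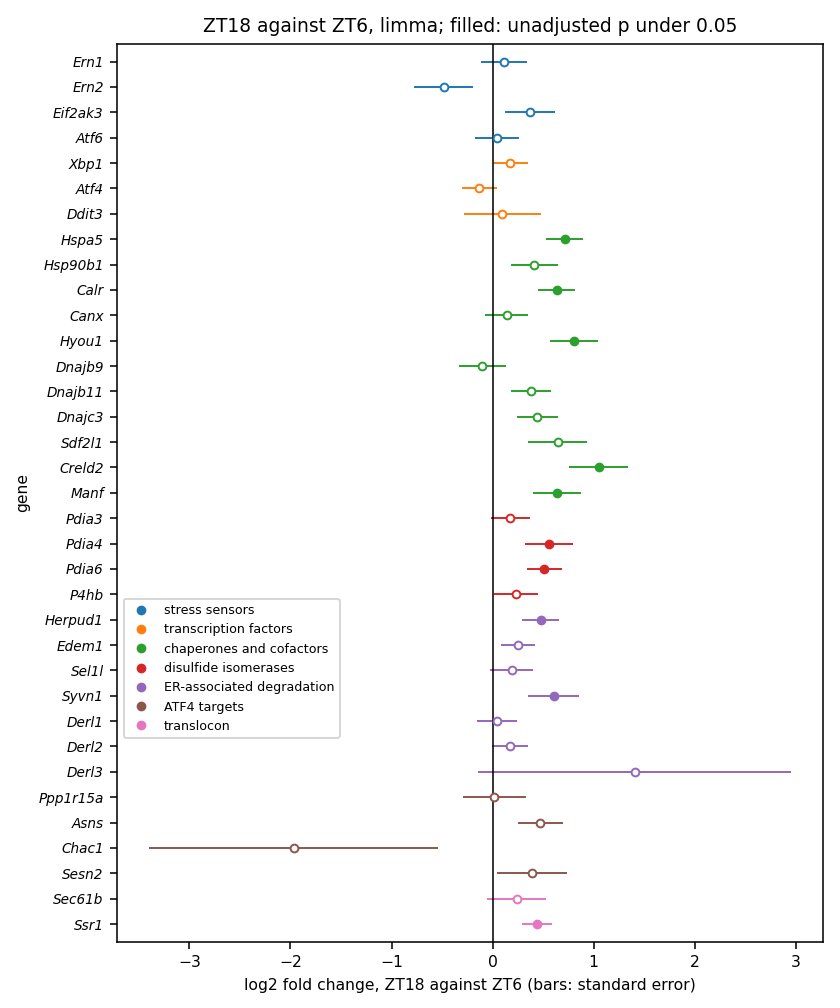
Log2 fold change of ZT18 against ZT6 (x axis) for each of the 35 members (y axis, coloured by role), with its standard error from limma; filled points have an unadjusted p under 0.05. Of the 35 points, 31 lie above 0, and the 10 filled ones all do.

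The members as a list stood mostly to one side in this contrast. At ZT18 against ZT6, 31 of 35 members were higher, compared with 48.4% of all genes tested, and the median log2 difference was 0.37, compared with -0.01 over all genes. Without the scarce Derl3 and Chac1, 30 of 33 were higher, with the same median of 0.37. An unadjusted limma p under 0.05 was found for 10 members, all higher at ZT18, where 3.22% of all genes were; both ZT18 libraries exceeded both ZT6 libraries for 19 members, where 19.2% of all genes did so. When single libraries were left out, the members' median ranged from 0.26 to 0.42. The count of 10 was 3 without ZT6 replicate 1 and likewise 3 without ZT6 replicate 2. The members also stood to one side at ZT18 against ZT0, by a smaller median. There, 32 of 35 were higher, compared with 49.6% of all genes, with a median log2 difference of 0.15, compared with -0.003. Both ZT18 libraries exceeded both ZT0 libraries for 5 members, as for 1839 of the 13503 genes tested.

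The ZT18 libraries of this contrast differed in their cell markers and among the members. The median deviation of 8 goblet cell markers from their gene means was 0.36 in ZT18 replicate 1 and -0.42 in ZT18 replicate 2 on the log2 scale, with -0.03 and -0.09 at ZT6, while the members' median deviation was 0.11 and 0.25 at ZT18 and -0.13 and -0.17 at ZT6. The part of goblet cells in this contrast was not tested. The summed B and plasma cell markers were 613 and 203 at ZT18 and 324 and 200.2 at ZT6. Creld2, Manf, Sdf2l1, Dnajb11 and Sec61b were highest in ZT18 replicate 1, and Hspa5, Hsp90b1, Calr, Canx, Hyou1 and all 4 disulfide isomerases in ZT18 replicate 2, as the heat map of all members shows.

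**Figure D3:**
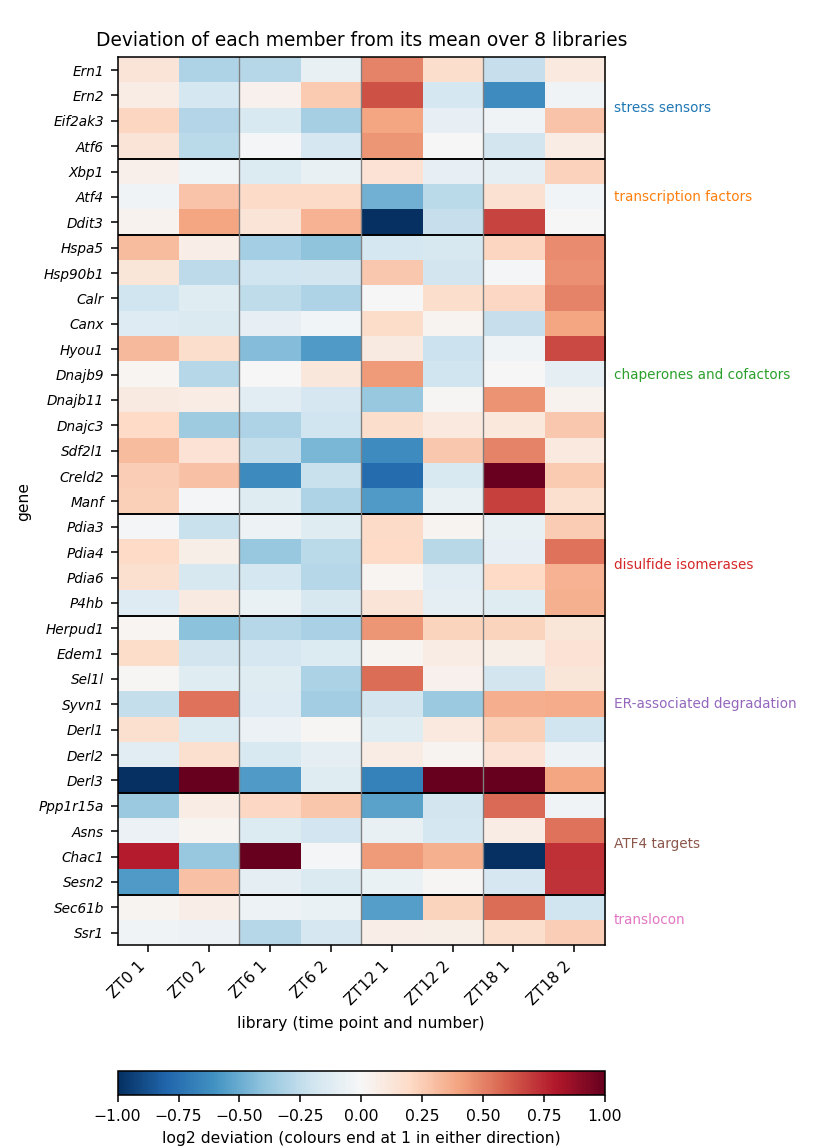
Log2 deviation of each member (rows, grouped by role) from its mean over the 8 libraries (columns), with colours ending at a deviation of 1. The ZT6 columns are mostly blue and the ZT18 columns mostly red, and ZT12 replicate 1 departs from ZT12 replicate 2 in the sensors, Ddit3, Sdf2l1 and Sec61b.

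**Figure D4:**
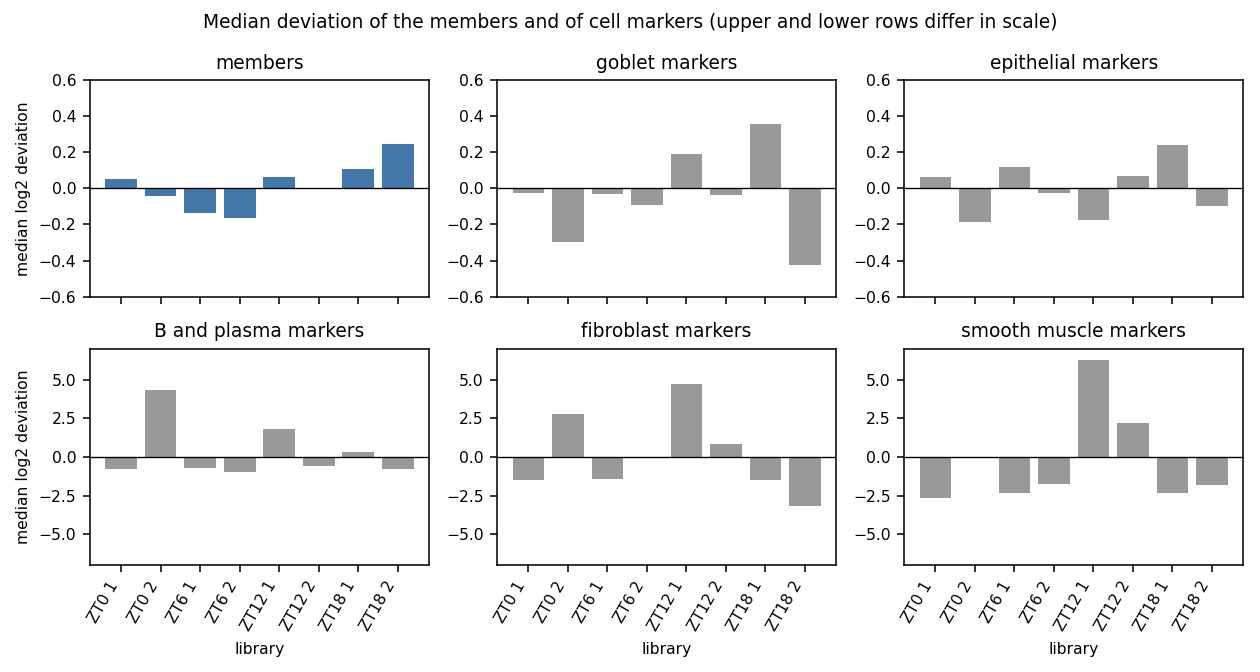
Median log2 deviation (y axis) of the 35 members and of 5 lists of cell type markers in each library (x axis); the upper row spans 0.6 and the lower row 7 in either direction. The members' median is lowest in the ZT6 libraries, while B and plasma cell, fibroblast and smooth muscle markers are high in ZT0 replicate 2 or ZT12 replicate 1.

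Among the transcription factors, Atf4 and Ddit3 had their lowest mean at ZT12, and Ddit3 and Xbp1 their highest at ZT18. Atf4 (ENSMUSG00000042406, GRCm38 chr15:80255184-80257541, plus strand), the main factor of the integrated stress response, had 2544 and 3171 normalised counts in the ZT0 libraries, 2984 and 2972 in those of ZT6, 1866 and 2167 in those of ZT12, and 2891 and 2557 in those of ZT18. Both ZT12 libraries were below the other 6. ZT12 was 0.708-fold ZT0 (log2 fold change -0.50 ± 0.18 SE, unadjusted p = 0.0197, adjusted p = 0.427, limma) and 0.675-fold ZT6 (-0.57 ± 0.18, unadjusted p = 0.0105, adjusted p = 0.705). Atf4 is a rather short transcript (2019 bases), and its lowest library was ZT12 replicate 1, in which longer transcripts read higher. Without ZT0 replicate 2 and ZT12 replicate 1 together, the log2 fold change for ZT12 against ZT0 was -0.23. The part of transcript length in this value was not tested.

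Ddit3 (ENSMUSG00000025408, GRCm38 chr10:127290774-127296288, plus strand) encodes CHOP, a factor downstream of ATF4 that favours cell death under lasting stress. Its normalised counts were 301 and 387 in the ZT0 libraries, 322 and 374 in those of ZT6, 116 and 250.2 in those of ZT12, and 469.9 and 293 in those of ZT18. Again both ZT12 libraries were the lowest, but they differed from each other, and ZT12 replicate 1 set much of the difference: the log2 fold change for ZT12 against ZT0 was -0.997 ± 0.38 SE (unadjusted p = 0.0273, adjusted p = 0.46, limma), and from -1.55 to -0.45 when single libraries were left out. Ddit3 is a short transcript (969 bases), its exons share bases with Mars on the other strand, and ZT12 replicate 1 is the library in which longer transcripts read higher. In that library, 14 early response genes of tissue dissociation also had a median deviation of -0.62, against -0.10 to 0.35 in the other 7. Without ZT0 replicate 2 and ZT12 replicate 1 together, the log2 fold change of Ddit3 for ZT12 against ZT0 was -0.27. That was the weakest value over all settings, which included removal of the length and GC trend. How much of the result each of these accounts for was not tested.

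Xbp1 (ENSMUSG00000020484, GRCm38 chr11:5520659-5525893, plus strand), whose mRNA is spliced by IRE1 into its active form, had 3342 and 3130.3 normalised counts in the ZT0 libraries, 2933 and 3050.5 in those of ZT6, 3552 and 3039 in those of ZT12, and 3017 and 3783 in those of ZT18. The time points overlapped, apart from ZT6 lying below ZT0, and the log2 fold change was 0.02 ± 0.18 SE at ZT12 relative to ZT0 and 0.18 ± 0.18 at ZT18 relative to ZT6, with adjusted p = 0.971 and 0.904 (limma). A gene count does not separate the spliced form, so the activity of XBP1 was not measured.

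Of the members as a whole, 8 had both ZT12 libraries below both ZT0 libraries, where 20.3% of all genes did. In the other direction, 7 had both ZT12 libraries above both ZT0 libraries, as did 2796 of the 13503 genes tested. By sign alone, 20 members were higher at ZT12 than at ZT0 and 15 lower. At an unadjusted limma p under 0.05 for ZT12 against ZT0, Atf4, Ddit3 and Creld2 were lower, where 4.95% of all genes were, and Herpud1 was higher, where 5.01% were. These 4 members became 0 without ZT12 replicate 1, 1 without ZT0 replicate 2 and 9 without ZT12 replicate 2. The members' median log2 difference was 0.04 in this contrast, with 0.01 over all genes, and it turned to -0.06 without ZT0 replicate 2 and -0.03 without ZT12 replicate 1. For ZT6 against ZT0, Hspa5, Hyou1 and Creld2 were lower at an unadjusted p under 0.05, where 1.98% of all genes were; 13 members had both ZT6 libraries below both ZT0 libraries, where 18.7% of all genes did. For ZT12 against ZT6, Ern1, Herpud1 and Sel1l were higher (3.34% of all genes) and Atf4 and Ddit3 lower (3.44%). For ZT18 against ZT12, Atf4, Ddit3, Hspa5, Creld2, Manf and Syvn1 were higher, where 4.32% of all genes were, and no member was lower at that threshold; these 6 members became 1 without ZT12 replicate 1 and 10 without ZT12 replicate 2, and the 5 members of ZT12 against ZT6 became 2 without ZT12 replicate 1 and 1 without either ZT6 library. The 3 members of ZT6 against ZT0 became 1 without ZT0 replicate 1 or either ZT6 library. These contrasts share libraries and are not independent of each other.

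The 4 sensors had their highest time mean at ZT12, as did 30.3% of all genes, in each case with ZT12 replicate 1 as the highest library. Longer transcripts read higher in that library, and those of Ern1, Atf6 and Eif2ak3 are long (6946, 7246 and 4513 bases), while that of Ern2 has 2957 bases. The part of transcript length in these values was not tested. Ern1 (ENSMUSG00000020715, GRCm38 chr11:106394650-106487852, minus strand), the widely expressed form of IRE1, had 797 and 589 normalised counts in the ZT0 libraries, 598 and 691 in those of ZT6, 1027 and 822 in those of ZT12, and 620.3 and 779 in those of ZT18. Both ZT12 libraries were above the other 6, and ZT12 against ZT6 gave a log2 fold change of 0.52 ± 0.22 SE (unadjusted p = 0.0476, adjusted p = 0.731, limma).

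Ern2 (ENSMUSG00000030866, GRCm38 chr7:122169893-122186207, minus strand), the form found in mucin-secreting epithelium, had 1255 and 1055 normalised counts in the ZT0 libraries, 1228 and 1432 in those of ZT6, 1856 and 1054 in those of ZT12, and 769.8 and 1165 in those of ZT18. The ZT12 libraries lay far apart from each other, and the ZT18 libraries lay below those of ZT6. The sum over 8 goblet cell markers was 498817 normalised counts in ZT18 replicate 1, where Ern2 was lowest, 356601 in ZT12 replicate 1, where Ern2 was highest, and 246505 to 336440 in the other 6 libraries; the part of goblet cells in these values was not tested.

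Eif2ak3 (ENSMUSG00000031668, GRCm38 chr6:70844515-70905245, plus strand) had 757 and 534 normalised counts in the ZT0 libraries, 588 and 517 in those of ZT6, 856 and 617 in those of ZT12, and 637 and 797 in those of ZT18, and Atf6 (ENSMUSG00000026663, GRCm38 chr1:170704674-170867771, minus strand) had 1113 and 845, 1004 and 907, 1389 and 1023, and 896 and 1075 in the same order. In both genes, the libraries of ZT0, ZT12 and ZT18 overlapped. For ZT12 against ZT0, log2 fold changes of the sensors were 0.42 ± 0.23 SE for Ern1, 0.28 ± 0.29 for Ern2, 0.19 ± 0.25 for Eif2ak3 and 0.30 ± 0.22 for Atf6, with unadjusted p from 0.0923 to 0.456 (limma). Without ZT12 replicate 1, which held smooth muscle and fibroblast transcripts, that of Ern1 was 0.26, that of Ern2 -0.13 and that of Eif2ak3 -0.04. Without ZT0 replicate 2, that of Ern1 was 0.21.

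Of the 4 listed targets of ATF4 analysed here, Ppp1r15a, Asns, Sesn2 and Chac1, 2 were above and 2 below their ZT0 level at ZT12; the median log2 difference was 0.00, with none at an unadjusted p under 0.05. In a longer list of 28 further ATF4 targets, 21 were lower at ZT12 than at ZT0, as were 6562 of the 13503 genes tested. In 12 of the 28, both ZT12 libraries lay below both ZT0 libraries, as in 20.3% of all genes. The median log2 difference of this list was -0.14. The list was not summarised without ZT0 replicate 2 or ZT12 replicate 1. Asns, the asparagine synthetase, had 341 and 362 normalised counts in the ZT0 libraries, 323 and 311 in those of ZT6, 337 and 315 in those of ZT12, and 375 and 517 in those of ZT18, so that both ZT18 libraries were the highest. Chac1 (ENSMUSG00000027313, GRCm38 chr2:119351229-119354381, plus strand), which degrades glutathione, was at 15.9 and 6.53 normalised counts in the ZT0 libraries, 24.6 and 8.70 in those of ZT6, 12.2 and 11.5 in those of ZT12, and 0 and 15.3 in those of ZT18, with no order that exceeds its spread.

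**Figure D5:**
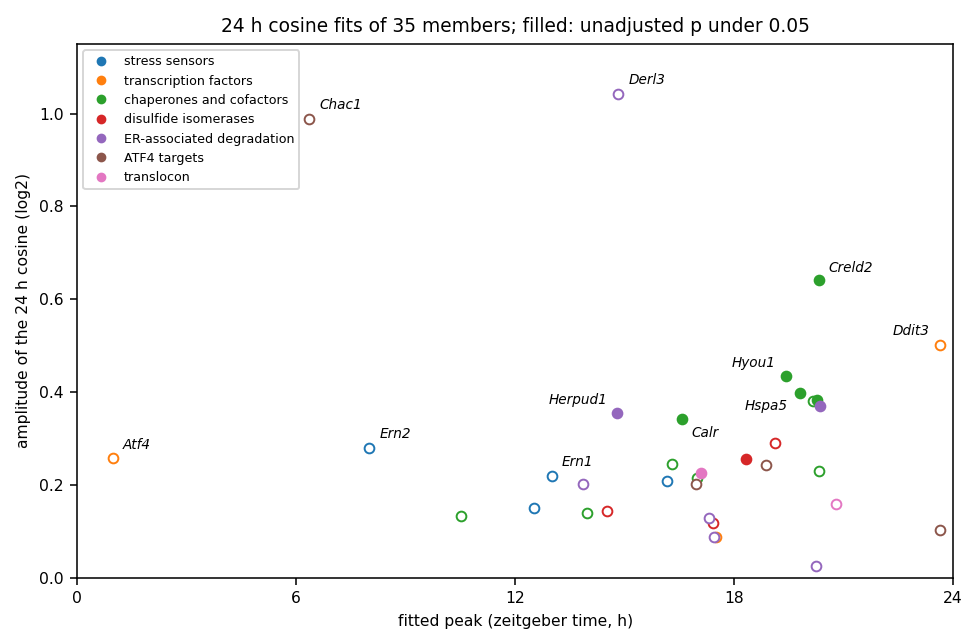
Fitted peak time (x axis, hours after lights on) and amplitude (y axis, log2) of a 24 h cosine for each of the 35 members, coloured by role; filled points have an unadjusted p under 0.05. The 9 filled points have peaks between 14.8 and 20.4 h, and the largest amplitudes, of Derl3 and Chac1, belong to genes near the detection limit.

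In the cosine fits, 25 of 35 members had a peak between 14 and 21 h, compared with 25.4% of all genes tested, and 25 had their highest time mean at ZT18, compared with 25.1%. The lowest time mean was at ZT6 for 22 members, compared with 23.7% of all genes. The median amplitude was 0.23 on the log2 scale, the same as over all genes (0.23), and 0.34 for the 11 chaperones and cofactors. With 4 time points on 1 day, a peak time is a fitted value and not a measured one. Hspa5, Creld2, Calr, Herpud1, Hyou1, Ssr1, Manf, Pdia6 and Syvn1 had an unadjusted cosine p under 0.05 in limma. Among the remaining members were all the sensors and transcription factors, with peaks of 0.99 h for Atf4, 23.6 h for Ddit3, 13.0 h for Ern1 and 17.5 h for Xbp1.

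Promoter windows from 250 bases before to 50 bases after the start site were taken from RefSeq (GRCm38.p6) for 31 of the 36 listed genes. They were searched on both strands for the ER stress response element (ERSE, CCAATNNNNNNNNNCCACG), where NF-Y and ATF6 bind, and its relative ERSE-II. The sites are shown because 11 of the members, among them Hspa5, Creld2, Calr and Herpud1, hold one; none was found in the windows of Atf4, Ddit3, Xbp1, Ern1 or Eif2ak3. Each sequence is written 5′ to 3′ in the orientation of the element, with its fixed letters in capitals.
Hspa5, 65 bases before the start site, chr2:34772025-34772043: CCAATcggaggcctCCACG
Creld2, 126 bases before, chr15:88819520-88819538: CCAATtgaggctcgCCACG
Calr, 162 bases before, chr8:84847075-84847093: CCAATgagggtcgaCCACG
Pdia6, 98 bases before, chr12:17266491-17266509: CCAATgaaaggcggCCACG
Syvn1, 44 bases before, chr19:6046532-6046550: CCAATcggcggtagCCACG
Dnajc3, 105 bases before, chr14:118937827-118937845: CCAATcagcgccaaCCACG
Canx, 145 bases before, chr11:50325800-50325818: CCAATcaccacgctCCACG
Hsp90b1, 212 bases before, chr10:86705638-86705656: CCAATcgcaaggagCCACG
Hsp90b1, 107 bases before, chr10:86705533-86705551: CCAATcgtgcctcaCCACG
Derl3, 156 bases before, chr10:75893242-75893260: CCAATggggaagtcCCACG
Herpud1 (ERSE-II), 52 bases before, chr8:94386377-94386387: ATTGGgCCACG
Dnajb11 (ERSE-II), 7 bases after, chr16:22857852-22857862: ATTGGcCCACG

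ERSE was found in 9 of the 32 windows of listed genes, or 28.1%, compared with 0.119% of 32851 windows of all genes, and ERSE-II in 2 (Herpud1 and Dnajb11), or 6.25%, compared with 0.0365%. ERSE was first described in promoters of this gene family, so its presence is background to the list and not a result of these data. The core of the unfolded protein response element (TGACGTGG) was found in no window of a listed gene and in 0.676% of all windows. The core of the element bound by ATF4 with C/EBP (TGATGNAA) was found in 4 windows (12.5%, compared with 3.97%), those of Asns, Chac1, Herpud1 and Trib3, and the E-box CACGTG, which CLOCK and BMAL1 bind, in 4 (12.5%, compared with 7.15%), those of Calr, Derl3, Dnajb9 and Ssr1. No E-box shared bases with an ERSE. These are matches of letters and not measured binding.

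At ZT18 against ZT6, and leaving out the scarce Derl3 and Chac1, the 10 members with ERSE or ERSE-II were all higher, with a median log2 difference of 0.49 and a range from 0.14 (Canx) to 1.05 (Creld2), and 6 of them had an unadjusted limma p under 0.05. Of the 18 members with a window but neither element, 16 were higher, the median over the 18 was 0.21, and 2 had such a p. Over all genes, 48.4% were higher, and 3.22% were higher with such a p. Hyou1 and Manf, which also had such a p, had no window and are in neither set. The sets differ in role too. Apart from Herpud1 and Syvn1, the first holds only chaperones, cofactors and Pdia6, while the second includes sensors, transcription factors and ATF4 targets. The difference between these sets was not tested.

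The rest of the pathway was followed in 6 further lists, of which 103 genes were tested: the other eIF2alpha kinases and eIF2B subunits, ATF6 relatives and their proteases, and further ATF4 targets, degradation factors, folding enzymes and translocon or signal peptidase genes. Limma called none of the 103 in any of the 8 tests, and the cosine fit gave 8 of them an unadjusted p under 0.05, where 9.15% of all genes had one. At ZT18 against ZT6, 15 of 28 further ATF4 targets, 10 of 18 further degradation factors, 12 of 23 further folding enzymes and 12 of 16 translocon and signal peptidase genes were higher, with median log2 differences of 0.04, 0.10, 0.01 and 0.14, all smaller than that of the members (0.37). The eIF2alpha kinases and eIF2B split evenly, with 5 of 10 higher, and the ATF6 family had 5 of 8 higher, with a median of 0.19.

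The 3 genes of these lists with the smallest cosine p were Gdf15, Eif2b1 and Ube2g2. Gdf15, a secreted stress cytokine and ATF4 target, had 117 and 94.2 normalised counts in the ZT0 libraries, 200.8 and 184 in those of ZT6, 84.3 and 49.6 in those of ZT12, and 64.1 and 60.3 in those of ZT18, with a cosine amplitude of 0.88 and a peak at 4.45 h (unadjusted p = 0.00415, adjusted p = 0.375, limma). Both ZT6 libraries were above the other 6, at the time point where most members had their lowest mean. Eif2b1, a subunit of the nucleotide exchange factor of eIF2, had 1259 and 1298 in the ZT0 libraries, 1159 and 1167 in those of ZT6, 746 and 898 in those of ZT12, and 1144 and 1085 in those of ZT18 (amplitude 0.32, unadjusted p = 0.0116, adjusted p = 0.456, limma), and its ZT12 libraries were the lowest, as for Atf4. Ube2g2, a ubiquitin-conjugating enzyme of ER-associated degradation, had 784 and 971, 579 and 723, 609 and 789, and 1107 and 918 in the same order of time points, with a fitted peak at 19.8 h (unadjusted p = 0.0195, adjusted p = 0.494, limma).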

How the data were processed

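RNA from colonic crypts of wild-type mice was sequenced at 4 time points with 2 libraries each. According to the methods and the submitters' processing notes, the authors aligned paired-end reads with STAR to GRCm38 and used DESeq2; the annotation, the counting and its strand setting are not given in the sources used here, and the labels and the methods name different library kits. The authors deposited 1 table of 14247 genes, whose 8 library columns hold a signal: reads per gene divided by 1 size factor per library, here called normalised counts. In each library, 100% of the deposited values came out as whole reads once divided by what 1 read was worth there. The tolerance was 0.01 reads for genes of low count and grew with the count for abundant ones. For the most abundant genes it was too wide to exclude a value. The remaining deposited columns hold the authors' own log2 fold change with its standard error, test score and p-values, and were not used. Genes were matched to GENCODE M21 (14244 of 14247).

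Values were tested as log2(normalised count + 1) with limma 3.58.1 (lmFit, eBayes with a mean-variance trend) in R 4.3.3. The fit covered 13503 genes whose mean reached 10, all 8 libraries in 1 fit, with Benjamini-Hochberg adjustment over all genes and a threshold of 0.05. The pseudocount of 1 makes the fold changes of scarce genes too small. Rhythms were fitted by a 24 h cosine, since a rank test such as that of the study cannot pass an adjustment at this size. The study used JTK through MetaCycle. An exact rank test written in the manner of JTK, with its p corrected over the trial phases, served as an alternative. edgeR 4.0.16 and DESeq2 1.42.0 on the recovered reads, other scalings, filters and pseudocounts, a replicate block, and fits without single libraries were further alternatives. The code was tested on simulated data. Values of 0 entered the fits as 0, before the pseudocount was added. The level of 3 reads served only to mark the detection limit of each library, and it covers counting error only.

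The members and lists were chosen with earlier results of these data known, so lists are described by counts and medians and not tested. Genes named with values in every library were the sensors and transcription factors, Hspa5, the 5 members with the smallest cosine p, the 5 with the largest difference at ZT12 relative to ZT0 and the 5 at ZT18 relative to ZT6, and, of the further lists, the 3 genes with the smallest cosine p; Asns and members named for their group were chosen after their values were seen.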

Additional observations from a re-analysis of the deposited data

How the results depend on the processing

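All counts of members called by limma stayed at 0 under 2 other scalings, other filters and pseudocounts, a fit without the mean-variance trend, the libraries left out singly, and the removal of each library's trend with GC content and transcript length, which was chosen after seeing the data; edgeR also called 0. The rank test could not have passed the adjustment at this size, so its lack of calls says nothing on this. Before adjustment over genes, 3 of 35 members had a rank test p under 0.05, and the share over all genes was not summarised. DESeq2 called 3 members in the cosine fit, 2 over the 4 time points and 1 for ZT18 against ZT6. Members with an unadjusted p under 0.05 numbered 4 to 11 in the cosine fit, 3 to 11 for ZT18 against ZT6 and 1 to 4 for ZT18 against ZT0 when single libraries were left out. The members' median log2 fold change ranged from -0.06 to 0.0735 for ZT12 against ZT0 and from 0.26 to 0.42 for ZT18 against ZT6 on leaving out single libraries, and was -0.11 for ZT12 against ZT0 without both ZT0 replicate 2 and ZT12 replicate 1. Under single omissions, values for ZT12 against ZT0 ranged from 0.21 to 0.64 for Ern1, 0.31 to 0.74 for Herpud1, -0.66 to -0.34 for Atf4, -0.13 to 0.69 for Ern2, -0.06 to 0.45 for Eif2ak3, 0.076 to 0.518 for Atf6, -0.09 to 0.14 for Xbp1, -0.74 to 3.81 for Derl3 and -0.40 to 0.77 for Chac1, and for ZT18 against ZT6 from -0.051 to 0.28 for Ern1, -0.091 to 0.17 for Atf6, -0.24 to 0.44 for Ddit3 and -3.98 to 0.046 for Chac1. Without ZT0 replicate 2 and ZT12 replicate 1 together, ZT12 against ZT0 was 0.045 for Ern1, -0.23 for Atf4, -0.27 for Ddit3, -0.25 for Ern2, -0.30 for Eif2ak3, -0.12 for Atf6, -0.14 for Xbp1, -0.43 for Chac1 and 4.90 for Derl3. Scaling to reads outside the mitochondrial genome, which shifted ZT18 replicate 1 by -0.11, gave -0.013 for Xbp1 (ZT12 against ZT0) and -0.002 for Atf6 (ZT18 against ZT6), and removal of the GC and length trend also gave -0.002 for Atf6. Removal of that trend also gave 0.28 for Ern1 (ZT12 against ZT0). None of these values was past the threshold, and the cause of each change of sign was not tested. With a minimum mean of 50, Derl3 and Chac1 were not tested. Same-numbered libraries did not vary together (correlations of their deviations from -0.29 to 0.22), so the numbers were not taken to pair them; a fit with the replicate number as a block called 0 members, with 9 at an unadjusted p under 0.05 for ZT18 against ZT6. How far depth limited these comparisons was not tested.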
